A study of Homo sapiens with 27 samples.

Results

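A set of 7 genes of the liver X receptor (LXR) system was described in cultured prostate cancer cells: the receptors NR1H2 and NR1H3 and 5 genes of the group that LXR is known to induce, ABCA1, ABCG1, MYLIP, LPCAT3 and SMPDL3A. They were chosen by symbol, as 7 of the 20987 genes in the deposited matrix, and all 7 were measured above the minimum value in each cell line. RNA was sequenced from 3 lines, each given the vehicle DMSO or 100 nM or 500 nM of IPI-9119, a compound that blocks the enzyme fatty acid synthase (FASN). Treatment lasted 6 days, without fresh medium in between, and each of the 9 groups held 3 libraries of poly(A)-selected RNA from cells pelleted together with their medium. LNCaP carries the label androgen sensitive and was established from a lymph node metastasis. Both 22Rv1, from a xenograft that relapsed after castration, and LNCaP95, derived from LNCaP by culture without androgen, carry the label of castration resistance. The question asked of the data was how the receptors and their sterol export targets stood in untreated cells of each line and what IPI-9119 did to them, with ABCG1 set against ABCA1.

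LXRs are nuclear receptors that bind DNA as partners of the retinoid X receptors and are switched on by oxysterols and by the cholesterol precursor desmosterol. Their targets lower the sterol load of a cell: ABCA1 and ABCG1 move cholesterol out to lipoproteins, and MYLIP, a ubiquitin ligase also called IDOL, sends lipoprotein receptors for degradation. LXRs also drive genes of lipid synthesis and of membrane remodelling, among them SREBF1, SCD, FASN itself and LPCAT3.

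Libraries held 14757874 to 26578881 reads in genes, and values are normalised counts, that is, counts divided by a size factor of the library. Differences are log2 fold changes ± standard error from limma on log2(value + 1), a scale that understates the change of low genes, and a gene was called at a Benjamini-Hochberg adjusted p under 0.05. Nothing in the labels says that the 3 libraries of a group came from separate cultures, so the p-values rest on variation among these libraries alone, and that variation may be technical. In bulk RNA, fewer cells that express a gene and less RNA per cell cannot be told apart. The 4 markers of luminal prostate epithelium read here (KRT8, KRT18, HOXB13 and EPCAM) were present in each group, with summed levels of 34103 to 51734 normalised counts. Of 6 macrophage markers, 5 reached at most 10.96 normalised counts in any library, and the remaining one, PTPRC, reached 139 in LNCaP95. Some libraries stood apart: in LNCaP at 100 nM, replicate 1 had FASN at 227517 normalised counts beside 51994 and 45537 in the other replicates, and the DMSO replicate 3 of 22Rv1 had 18444 genes above 0 beside 15585 to 15962 in the other libraries of that line. In the other LNCaP groups too, replicate 1 had the most FASN, at 54998 beside 29273 and 28676 with DMSO and at 234767 beside 133676 and 126294 with 500 nM. Mitochondrial reads were 7.56% and 6.92% of the total in replicate 2 of LNCaP95 at 100 and 500 nM, beside 1.78% to 3.75% in the other libraries of that line. Results whose call turned on one of these libraries are given with and without it.

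The 2 receptors differed in abundance and in what the compound did to them. NR1H2 (LXR-beta), the widely expressed receptor, rose by about the same amount at both doses in LNCaP95. In LNCaP and 22Rv1 it was not called in the main analysis and was called only under single alternative settings. NR1H3 (LXR-alpha), the form best known from liver and macrophages, fell modestly in LNCaP95, with calls that some settings took away. In LNCaP at 500 nM NR1H3 was called lower only under some settings. Scaled to exon length, NR1H2 was the more abundant of the pair in every library. In DMSO the ratio of NR1H2 to NR1H3 per kilobase was 12.05 ± 0.84 in LNCaP, 9.45 ± 1.93 in 22Rv1 and 5.78 ± 0.39 in LNCaP95 (SD, n = 3).

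NR1H2 in LNCaP95 stood at 1154, 964 and 1138 normalised counts in DMSO, at 1904, 1665 and 1721 with 100 nM and at 1843, 1695 and 1714 with 500 nM. All 6 treated libraries lay above all 3 DMSO libraries. The rise was 0.70 ± 0.08 at 100 nM (1.63-fold, limma adjusted p = 1.75e-05) and 0.69 ± 0.08 at 500 nM (1.62-fold, adjusted p = 1.92e-05). In 22Rv1 the DMSO libraries held 1701, 1499 and 1389, the 100 nM libraries 1907, 2053 and 1470 and the 500 nM libraries 1994, 1726 and 1769, so the groups overlapped, with differences of 0.23 ± 0.13 and 0.26 ± 0.13 (limma adjusted p = 0.329 and 0.258). LNCaP had the highest levels, from 2442 to 2891 in DMSO, 1974 to 2742 at 100 nM and 2255 to 2369 at 500 nM, with differences of -0.19 ± 0.11 and -0.20 ± 0.11 (limma adjusted p = 0.232 and 0.248). NR1H2 stayed uncalled in 12 of 13 alternative settings in LNCaP at each dose and in 22Rv1 at 500 nM. The lowest adjusted p over these settings was 0.0143 and 0.0246 in LNCaP at 100 and 500 nM and 0.0226 in 22Rv1 at 500 nM. Across the 9 groups, the mean level of NR1H2 ran from 1086 in LNCaP95 with DMSO to 2660 in LNCaP with DMSO, a 2.45-fold span. The 3 LNCaP groups came first, the 4 treated groups of 22Rv1 and LNCaP95 followed with overlapping ranges, then 22Rv1 with DMSO, and LNCaP95 with DMSO stood below all others without overlap.

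NR1H3 varied less, with group means from 251 to 370 normalised counts, a 1.47-fold span in which every neighbour in the order overlapped the next. In LNCaP95 it was at 331, 301 and 310.4 in DMSO, 239.9, 248 and 265 at 100 nM and 236, 273 and 279 at 500 nM. Each treated library lay below each DMSO library. The log2 fold change was -0.32 ± 0.10 at 100 nM (limma adjusted p = 0.0152) and -0.26 ± 0.10 at 500 nM (adjusted p = 0.0432). The 100 nM call was lost without DMSO replicate 1 or 100 nM replicate 1 (-0.29 in each case, adjusted p = 0.0588 and 0.0568). The 500 nM call was lost when any of 4 libraries was left out, DMSO replicate 1 or 3 or 500 nM replicate 1 or 2 (-0.22, -0.27, -0.19 and -0.29, adjusted p = 0.135, 0.0788, 0.168 and 0.0585). Of 13 other alternative settings, 11 kept the 100 nM call (-0.36 to -0.26 over all 13, adjusted p up to 0.110). The 500 nM call was kept in 9 of the 13 (-0.30 to -0.15, adjusted p up to 0.350). In LNCaP the 500 nM libraries, at 284, 302 and 277, all lay below the DMSO libraries at 353, 384 and 372, yet the difference of -0.36 ± 0.12 missed the threshold (limma adjusted p = 0.0592). Same-numbered DMSO and 500 nM libraries of LNCaP deviated together, and with the replicate number as a block NR1H3 was called lower there (-0.36, limma adjusted p = 0.0270). It was also called with array weights (-0.39, adjusted p = 0.00467), with only the 6 libraries compared (-0.36, adjusted p = 0.0347) and without DMSO replicate 1 (-0.39, adjusted p = 0.0449). At 100 nM LNCaP held 314, 418 and 327, overlapping DMSO. In 22Rv1 the range was 215 to 356 in DMSO and 253 to 352 over both doses. With NR1H2 up and NR1H3 down, the ratio of NR1H2 to NR1H3 per kilobase in LNCaP95 was 11.8 ± 1.29 at 100 nM and 11.2 ± 1.57 at 500 nM (SD, n = 3). Exons of ACP2 on the opposite strand cover 5.39% of the NR1H3 exons, and, although the library kit marks strand, the strand setting of the counting is not stated in the sources used here. ACP2 was called higher in LNCaP95 (0.39 ± 0.09 and 0.36 ± 0.09), opposite in sign to NR1H3.

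ABCG1 rose in all 3 lines at both doses, and ABCA1 did not follow it everywhere. ABCA1, which loads cholesterol and phospholipid onto lipid-poor apolipoprotein A-I, was higher with the compound in LNCaP and 22Rv1, called there at 500 nM alone, and was lower in LNCaP95 at both doses. ABCG1, which moves sterol towards mature HDL particles, rose in LNCaP95 as well, the line in which ABCA1 fell.

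The upstream sequence of ABCA1 is shown because it is the member in which the searched LXR motif was found. Sequences are the 250 bases before the start site, from RefSeq on GRCh38.p14, written along the strand of the gene, and 5 of the 7 members could be matched (NR1H2, NR1H3, ABCA1, MYLIP and LPCAT3). The ABCA1 window is chr9:104928156-104928405 on the minus strand. Its capitals mark, from left to right, an E-box (CACGTG) at 147 to 142 bases before the start and, at 69 to 55 bases, a match on the opposite strand to a direct repeat of the kind LXR and its partner bind, searched as GGTNA followed by any 5 bases and GGTNA again.
ABCA1: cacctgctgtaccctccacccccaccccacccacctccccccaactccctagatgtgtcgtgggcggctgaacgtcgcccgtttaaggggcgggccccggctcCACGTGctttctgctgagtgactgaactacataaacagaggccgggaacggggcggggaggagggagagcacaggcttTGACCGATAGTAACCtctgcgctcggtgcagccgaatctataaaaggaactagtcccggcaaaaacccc
Searched on both strands, the direct repeat was in 1 of the 5 members and in 0.533% of 35116 human windows of the same length, and the E-box was in 1 of 5 and in 6.34%. The sterol response motif TCACNCCAC, known from SREBP binding, was in 0 of 5 and in 0.883%. These are matches of letters and not measured binding, and the windows of ABCG1 and SMPDL3A were not analysed here.

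In LNCaP, ABCG1 was at 434, 573 and 575 normalised counts in DMSO, at 1570.35, 926 and 954 with 100 nM and at 1555, 1883 and 1938 with 500 nM. In 22Rv1 it was at 60.6, 71.0 and 51.6 in DMSO, 357, 321 and 365 with 100 nM and 366, 349 and 398 with 500 nM. In LNCaP95 the same series read 245, 268 and 226, then 1552, 1619 and 1740.28, then 1691, 1695 and 1599. In each line all 6 treated libraries lay above all 3 DMSO libraries, and only in LNCaP at 100 nM did the treated replicates themselves spread widely.

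The rise of ABCG1 was 1.09 ± 0.19 at 100 nM (2.13-fold, limma adjusted p = 0.00265) and 1.77 ± 0.19 at 500 nM (3.41-fold, adjusted p = 0.000137) in LNCaP. In 22Rv1 it was 2.4998 ± 0.14 (5.66-fold, limma adjusted p = 2.56e-06) and 2.59 ± 0.14 (6.04-fold, adjusted p = 1.66e-06). In LNCaP95 it was 2.73 ± 0.08 (6.63-fold, limma adjusted p = 3.86e-10) and 2.75 ± 0.08 (6.74-fold, adjusted p = 3.46e-10). No alternative setting and no left-out library took any of these 6 calls away. Without LNCaP 100 nM replicate 1, where FASN was highest, ABCG1 in that comparison was 0.85 (adjusted p = 0.00353).

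ABCA1 was scarcer and more scattered. In LNCaP it was at 102, 151 and 104 normalised counts in DMSO, at 131, 231 and 377 with 100 nM and at 187, 241 and 296 with 500 nM. In 22Rv1 it was at 9.23, 14.4 and 32.0 in DMSO, 53.6, 28.6 and 48.4 with 100 nM and 47.3, 60.0 and 50.7 with 500 nM, which in DMSO meant only 7 to 31 reads. In LNCaP95 the values were 107, 108 and 57.7 in DMSO, 51.8, 59.4 and 27.2 with 100 nM and 36.0, 69.0 and 45.2 with 500 nM. Treated and DMSO libraries did not overlap in LNCaP and 22Rv1 at 500 nM, and they overlapped in both lines at 100 nM and in LNCaP95 at 500 nM. In LNCaP95 at 100 nM they overlapped by 1 library, DMSO replicate 3 lying below 100 nM replicate 2.

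For ABCA1 in LNCaP the difference was 0.94 ± 0.32 at 100 nM, which was not called (limma adjusted p = 0.0530), and 1.02 ± 0.32 at 500 nM, which was (2.02-fold, adjusted p = 0.0460). That second call was lost whichever of the 6 libraries was left out (adjusted p = 0.0518 to 0.151), while at 100 nM leaving out replicate 1 alone gave 1.33 and a call (adjusted p = 0.00704). In 22Rv1 ABCA1 differed by 1.31 ± 0.39 at 100 nM, not called (limma adjusted p = 0.0661), and rose by 1.62 ± 0.39 at 500 nM (3.08-fold, adjusted p = 0.0263). Without DMSO replicate 3, the library with the most genes above 0, both 22Rv1 values were larger and called, 1.78 (adjusted p = 0.0173) and 2.09 (adjusted p = 0.00663). Without 100 nM replicate 2 the 100 nM difference was called as well (1.58, adjusted p = 0.0324). Leaving out any other of the 6 libraries compared took the 500 nM call away (adjusted p up to 0.100), with values from 1.24 to 1.70.

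In LNCaP95 the sign was the opposite: ABCA1 fell, with a log2 fold change of -0.98 ± 0.32 at 100 nM (1.97-fold lower, limma adjusted p = 0.0219) and -0.84 ± 0.32 at 500 nM (1.79-fold lower, adjusted p = 0.0436). Leaving out DMSO replicate 1 or 2 or 100 nM replicate 3 ended the 100 nM call (-0.84, -0.83 and -0.64, adjusted p = 0.0782, 0.0879 and 0.106). Leaving out DMSO replicate 1 or 2, or 500 nM replicate 1 or 3, ended the 500 nM call (-0.70, -0.69, -0.64 and -0.79, adjusted p from 0.103 to 0.150). The sign stayed negative in every one of these fits. Replicate numbers appeared to pair the libraries of LNCaP95, from the data and not the labels. With the number as a block both falls were called (limma adjusted p = 0.00124 and 0.00379).

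**Figure D1:**
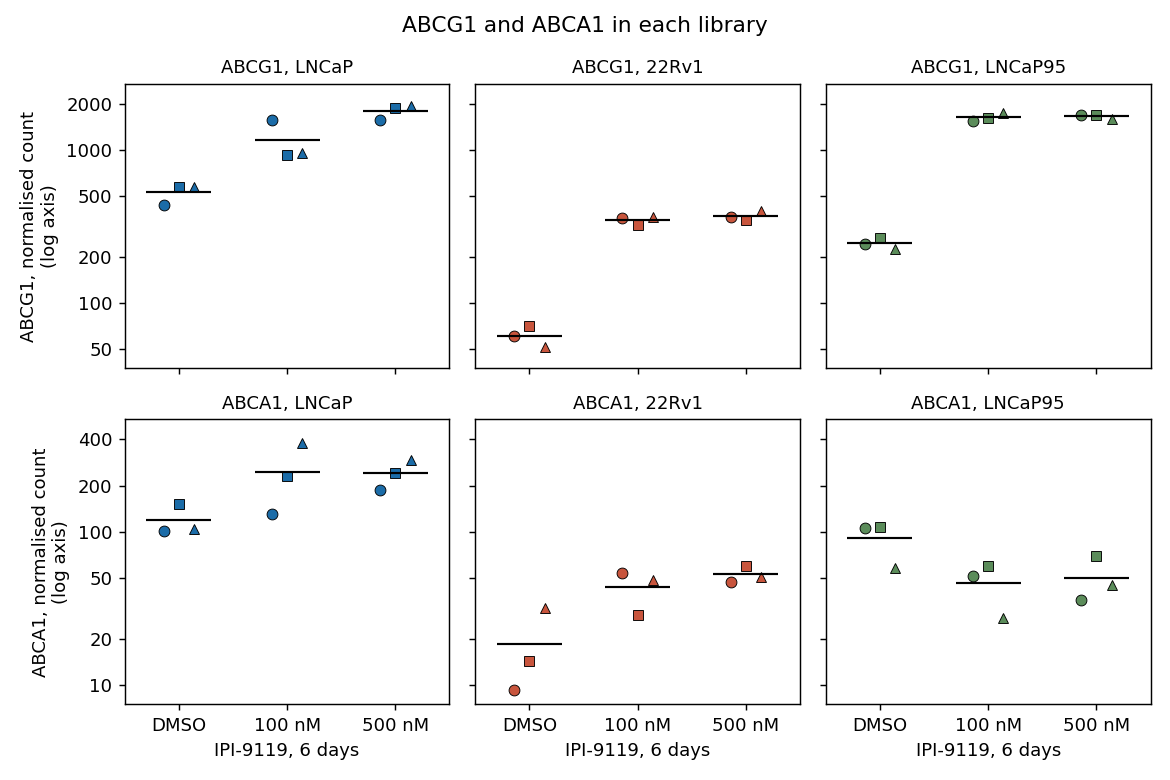
Normalised counts of ABCG1 (upper panels) and ABCA1 (lower panels) on log axes for each library of LNCaP, 22Rv1 and LNCaP95 with DMSO, 100 nM or 500 nM IPI-9119. Circles, squares and triangles are replicates 1, 2 and 3 and lines are group means. ABCG1 is higher with the compound in all panels, while ABCA1 in LNCaP95 goes from a mean of 90.7 in DMSO to 46.1 and 50.05.

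Across the 9 groups ABCG1 spanned 29.3-fold, from a mean of 61.1 ± 9.74 in untreated 22Rv1 to 1792 ± 207 in LNCaP at 500 nM (SD, n = 3). LNCaP at 500 nM, LNCaP95 at both doses and LNCaP at 100 nM formed the top of the order with overlapping neighbours. Then came untreated LNCaP (527 ± 80.7), treated 22Rv1, untreated LNCaP95 (246 ± 20.8) and untreated 22Rv1. Each untreated group stood without overlap with its neighbours in the order. ABCA1 spanned 13.3-fold, from 18.5 ± 11.9 in untreated 22Rv1 to 246 ± 124 in LNCaP at 100 nM, and 7 of its 8 neighbouring pairs overlapped. Treated LNCaP95 (46.1 ± 16.8 and 50.05 ± 17.0) sat among treated 22Rv1 (43.5 ± 13.2 and 52.7 ± 6.57) for ABCA1, whereas for ABCG1 it sat among treated LNCaP. Over the 9 group means on the log2 scale, Pearson's r between ABCG1 and ABCA1 was 0.598, a description over groups that share lines.

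The ratio of ABCG1 to ABCA1 was also read within each library. In LNCaP95, log2((ABCG1 + 1)/(ABCA1 + 1)) was 1.19, 1.30 and 1.95 in DMSO, 4.88, 4.74 and 5.95 at 100 nM and 5.51, 4.60 and 5.11 at 500 nM. In 22Rv1 it was 2.59, 2.22 and 0.67 in DMSO, 2.72, 3.44 and 2.89 at 100 nM and 2.93, 2.52 and 2.95 at 500 nM. In LNCaP it was 2.08, 1.92 and 2.46 in DMSO, 3.57, 2.00 and 1.34 at 100 nM and 3.05, 2.96 and 2.71 at 500 nM. Treated libraries lay above all DMSO libraries of the line in 6 of 6 cases in LNCaP95, 5 of 6 in 22Rv1 and 4 of 6 in LNCaP.

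Both doses together against DMSO, the ratio in LNCaP95 was higher by 3.65 on the log2 scale, or 12.6-fold (two-sided exact permutation test of 6 against 3 libraries, p = 0.0119, the smallest its 84 arrangements allow, 0.0357 after Benjamini-Hochberg adjustment over the 3 lines). In 22Rv1 it was higher by 1.08, or 2.11-fold (exact permutation p = 0.0238, adjusted p = 0.0357), and this rested on DMSO replicate 3, without which the difference was 0.50 (exact permutation p = 0.179). Leaving out DMSO replicate 2 of 22Rv1 also ended the call (1.28, exact permutation p = 0.0714). In LNCaP the difference was 0.45 (exact permutation p = 0.393, adjusted p = 0.393), with the 100 nM replicate 1 at 3.57 and the other replicates of that dose within or below the DMSO range. Differences of the ratio between lines were not tested. Per kilobase of exon, ABCG1 exceeded ABCA1 by 11.2 ± 2.21, 10.8 ± 6.24 and 7.17 ± 2.20 times in DMSO in LNCaP, 22Rv1 and LNCaP95, and by 18.7 ± 2.25, 17.7 ± 2.83 and 88.1 ± 27.7 times at 500 nM (SD, n = 3).

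**Figure D2:**
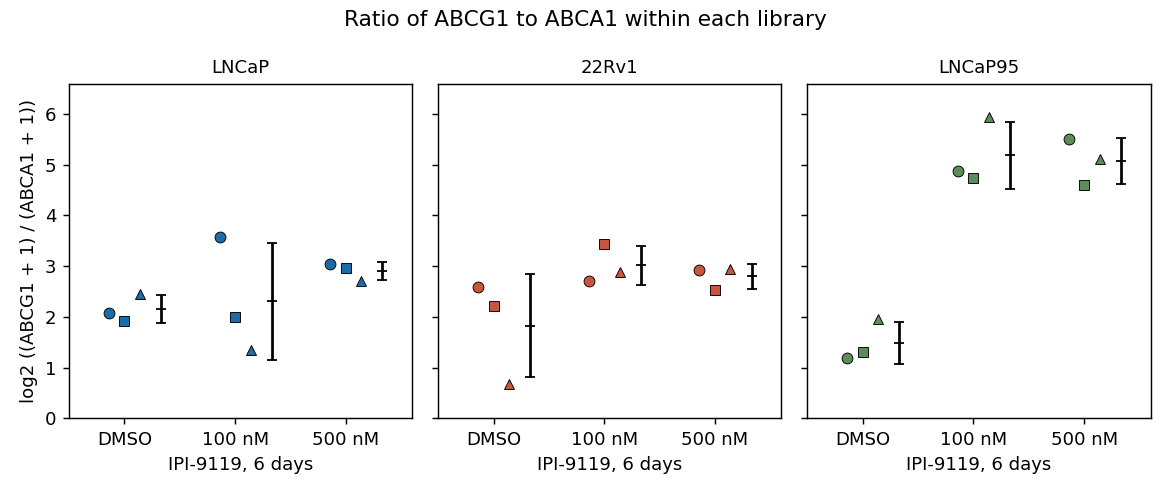
Log2 ratio of ABCG1 to ABCA1, each plus 1, within each library, by line and treatment. Circles, squares and triangles are replicates 1, 2 and 3, and the bars beside them are the mean ± SD of 3 libraries. The 6 treated LNCaP95 libraries lie between 4.60 and 5.95, above the 3 DMSO libraries at 1.19 to 1.95.

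MYLIP, the ligase that lowers lipoprotein receptors, rose in 22Rv1 and LNCaP95 at both doses and in LNCaP at 500 nM. In 22Rv1 it went from 140, 146 and 178 normalised counts in DMSO to 367, 279.7 and 331 with 100 nM and 291, 331 and 325 with 500 nM, and in that line all treated libraries lay above all DMSO libraries. The rises were 1.07 ± 0.14 (2.10-fold, limma adjusted p = 0.00120) and 1.03 ± 0.14 (2.04-fold, adjusted p = 0.00158), and with replicates 2 and 3 only the first missed the threshold (0.91, adjusted p = 0.0555). In LNCaP95 it went from 247, 200 and 198 to 323, 289 and 304 and to 369, 279 and 292, again without overlap, with rises of 0.51 ± 0.13 and 0.54 ± 0.13 (limma adjusted p = 0.00415 and 0.00287). In LNCaP it was at 270, 257 and 279 in DMSO, at 321, 238 and 251 with 100 nM and at 399, 376 and 385 with 500 nM. There the 100 nM difference was -0.00 ± 0.13 (limma adjusted p = 0.989) and the 500 nM rise 0.52 ± 0.13 (1.44-fold, adjusted p = 0.0139). Dropping DMSO replicate 2 or 500 nM replicate 1 ended that call (adjusted p = 0.0550 and 0.0558). Across groups MYLIP spanned 2.501-fold, from 155 ± 20.9 in untreated 22Rv1 to 387 ± 11.6 in LNCaP at 500 nM (SD, n = 3), which stood above all other groups. The 4 treated groups of 22Rv1 and LNCaP95 overlapped each other at means of 305 to 326, and untreated LNCaP95 and then untreated 22Rv1 came last, each without overlap with the group above it in the order.

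LPCAT3, an acyltransferase that puts polyunsaturated fatty acids into membrane phospholipids, was called higher in all 6 comparisons with DMSO, as was ABCG1 alone among the other members. LNCaP held 2964, 2848 and 2856 normalised counts in DMSO, 5711, 4132 and 3841 with 100 nM and 5162, 4832 and 4677 with 500 nM. In 22Rv1 the series was 1560.38, 1509.54 and 1529.53, then 2342, 2168 and 2133, then 2391, 2255 and 2159. LNCaP95 went from 2110.35, 1676 and 1971 to 3381, 3502 and 3239 and to 3446, 3234 and 3046. In all 3 lines the treated libraries lay above the DMSO libraries without overlap. The rises at 100 nM and 500 nM were 0.64 ± 0.13 and 0.76 ± 0.13 in LNCaP, 0.53 ± 0.09 and 0.56 ± 0.09 in 22Rv1 and 0.82 ± 0.09 and 0.76 ± 0.09 in LNCaP95, or 1.44-fold to 1.76-fold (largest limma adjusted p = 0.00524). With replicates 2 and 3 only, LPCAT3 kept its size in 22Rv1 (0.50 and 0.54) and lost both calls there (adjusted p = 0.119 and 0.0879). The gene spanned 3.19-fold over the groups, from 1533 ± 25.6 in untreated 22Rv1 to 4890.46 ± 248 in LNCaP at 500 nM (SD, n = 3), and the 2 doses of each line overlapped while each untreated group stood below its treated groups. Exons of EMG1 on the opposite strand cover 66.4% of the LPCAT3 exons, and without the strand setting of the counting the reads of the pair cannot be told apart. EMG1 was not called in any of the 6 comparisons, with log2 fold changes of -0.21 to 0.33, and its level ran from 1253 to 2077 over the libraries while LPCAT3 ran from 1510 to 5711 (1509.54 to 5710.53).

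The upstream windows of MYLIP and LPCAT3 are shown because these members were called higher together in 5 of the 6 comparisons. Capitals mark GC boxes, GGGCGG on either strand, the binding motif of SP1-type factors, which were in 5 of the 5 members searched and in 42.6% of all windows. The MYLIP window is chr6:16128836-16129085 on the plus strand, with boxes starting 170, 98 and 44 bases before the start, and the LPCAT3 window is chr12:7018477-7018726 on the minus strand.
MYLIP: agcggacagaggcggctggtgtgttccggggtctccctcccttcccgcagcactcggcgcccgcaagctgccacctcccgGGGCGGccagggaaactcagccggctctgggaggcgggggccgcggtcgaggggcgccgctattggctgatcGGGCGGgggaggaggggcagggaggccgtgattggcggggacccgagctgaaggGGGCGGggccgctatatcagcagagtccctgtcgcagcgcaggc
LPCAT3: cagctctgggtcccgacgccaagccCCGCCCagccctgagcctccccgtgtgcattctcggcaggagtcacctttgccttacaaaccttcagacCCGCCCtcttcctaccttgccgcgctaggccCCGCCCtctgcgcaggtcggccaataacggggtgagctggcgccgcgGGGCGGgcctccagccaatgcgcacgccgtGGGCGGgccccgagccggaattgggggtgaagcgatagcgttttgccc
Neither window held the direct repeat, the E-box or the SREBP motif searched for, which says only that those letters were not in these 250 bases.

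SMPDL3A, a secreted phosphodiesterase related to acid sphingomyelinase and known as an LXR target in human macrophages, moved in different directions. It was most abundant in 22Rv1, where it fell from 3308, 3306 and 3158 normalised counts in DMSO to 2363, 2666 and 2643 with 100 nM and 2351, 2518 and 2163 with 500 nM. Each treated library lay below each DMSO library. The log2 fold change was -0.35 ± 0.09 at 100 nM (1.28-fold lower, limma adjusted p = 0.0413) and -0.48 ± 0.09 at 500 nM (1.39-fold lower, adjusted p = 0.00968). The 100 nM call was lost when DMSO replicate 1, 2 or 3 or 100 nM replicate 1 was left out (adjusted p = 0.0834, 0.134, 0.0982 and 0.191). Of 13 other alternative settings, 7 kept the 100 nM call (-0.44 to -0.28 over all 13, adjusted p up to 0.353). The 500 nM call was kept in 11 of the 13 (-0.56 to -0.44, adjusted p up to 0.160). In LNCaP95 SMPDL3A held 653, 912 and 912 in DMSO, 837, 1486 and 1386 with 100 nM and 775, 1425 and 1584 with 500 nM, replicate 1 being lowest in each group. Differences there of 0.55 ± 0.25 and 0.56 ± 0.25 were not called (limma adjusted p = 0.0801 and 0.0769). With the replicate number as a block, the same differences were called (adjusted p = 4.60e-05 and 4.08e-05), and without 100 nM replicate 1 or 500 nM replicate 1 they were 0.81 (adjusted p = 0.0139) and 0.88 (adjusted p = 0.00343). In LNCaP the gene was at 418, 471 and 525 in DMSO, 556, 412 and 496 with 100 nM and 663, 516 and 528 with 500 nM, all overlapping, with differences of 0.05 ± 0.14 and 0.27 ± 0.14 (limma adjusted p = 0.834 and 0.205). Its span over the groups was 6.91-fold, from 471 ± 53.5 in untreated LNCaP to 3257 ± 85.8 in untreated 22Rv1 (SD, n = 3), and the 3 groups of each line stayed together in the order.

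**Figure D3:**
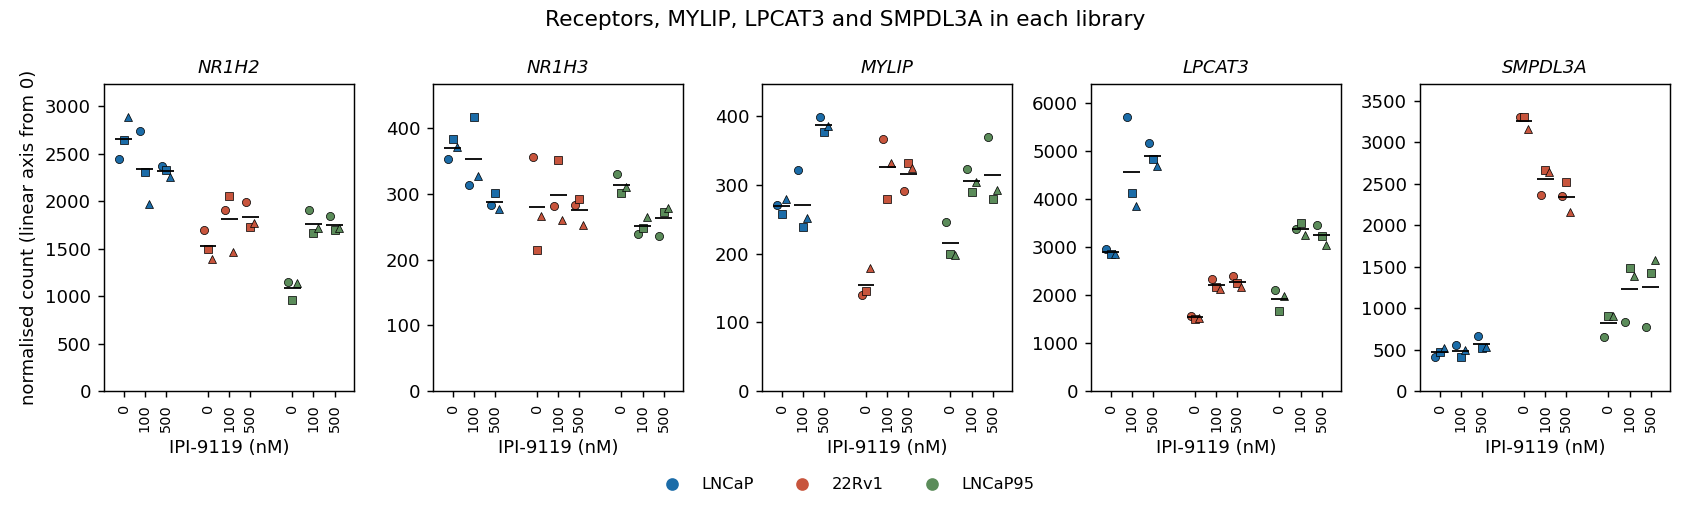
Normalised counts of NR1H2, NR1H3, MYLIP, LPCAT3 and SMPDL3A on linear axes from 0, for each library of the 3 lines (colours) at 0 (DMSO), 100 and 500 nM IPI-9119. Circles, squares and triangles are replicates 1, 2 and 3 and lines are group means. LPCAT3 is higher with the compound in each line, NR1H2 only in LNCaP95 without overlap, and SMPDL3A is lower in 22Rv1.

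Counted over the 7 members, 2 were called higher and 0 lower at 100 nM in LNCaP, where 25.3% of 12837 genes tested were called (13.7% higher and 11.6% lower), and 4 and 0 at 500 nM, where 20.8% were called (11% higher and 9.83% lower). In 22Rv1 3 were called higher and 1 lower at 100 nM beside 6.55% of 13563 genes (3.19% higher and 3.36% lower), and 4 and 1 at 500 nM beside 6.97% (3.47% and 3.5%). In LNCaP95 4 were called higher and 2 lower at each dose beside 52.3% of 12844 genes (28.2% and 24.1%), a share at which calls of single members say little by themselves. Leaving out 1 library brought the number of all genes called in LNCaP from 3250 to as few as 1736 at 100 nM and from 2671 to as few as 1475 at 500 nM. In 22Rv1 it went from 889 to as few as 261 at 100 nM and from 946 to between 384 and 1461 at 500 nM, so these shares are uncertain. The median of the members at 100 nM was 0.047 in LNCaP, 0.53 in 22Rv1 and 0.55 in LNCaP95, beside medians of all genes tested of -0.00, -0.01 and 0.03. It was 0.52 in LNCaP, 0.56 in 22Rv1 and 0.56 in LNCaP95 at 500 nM, beside medians of all genes tested of -0.01, -0.00 and 0.03. The 3 DMSO libraries of a line served as reference for each dose, so the 2 comparisons of a line are not independent. Scaling each library to the same total left 5 members called in 22Rv1 and 6 in LNCaP95 at 500 nM and 3 in LNCaP, where ABCA1 lost its call (1.09, adjusted p = 0.0548). Over all genes, 1270 of 13537, 6469 of 12933 and 2653 of 12824 were then called. The same scaling moved the share of all called genes that were higher from 54.3% to 65.7% and from 52.8% to 68.9% in LNCaP at the 2 doses, and from 48.7% to 26.9% and from 49.8% to 26.6% in 22Rv1.

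**Figure D4:**
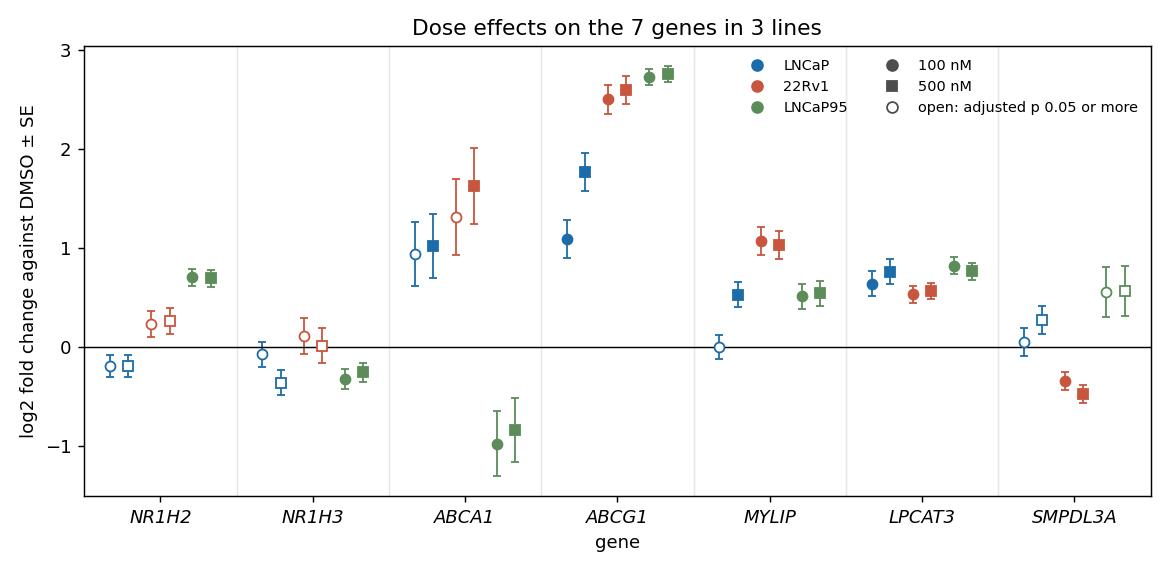
Log2 fold changes against DMSO ± standard error (limma) of the 7 genes in LNCaP, 22Rv1 and LNCaP95 (colours) at 100 nM (circles) and 500 nM (squares), filled where the adjusted p was under 0.05. ABCG1 reaches 2.75 in LNCaP95, where ABCA1 is at -0.98 and -0.84.

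Between the 2 doses, 0 of the 7 members were called in any line by limma, where 0.00779% of genes were called in LNCaP and 0% in 22Rv1 and LNCaP95. An unadjusted p under 0.05 was reached by 3 members, all in LNCaP: MYLIP (0.53 ± 0.13 higher at 500 nM, adjusted p = 0.296), ABCG1 (0.68 ± 0.19, adjusted p = 0.331) and NR1H3 (-0.29 ± 0.12, adjusted p = 0.426). On reads recovered from the values, edgeR called 0 members in LNCaP and DESeq2 called 1, beside 1 and 93 of 12837 genes. Limma called 2 members there without 100 nM replicate 1. The share of all genes called in that fit is not given here, so that count says little by itself. Limma also called 2 members there with replicates 2 and 3 only, beside 755 of 12677 genes. The 95% intervals of the ABCG1 difference between doses were -0.22 to 0.41 in 22Rv1 and -0.15 to 0.20 in LNCaP95.

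Untreated, the lines differed in nearly all members, as they did in most genes. Compared with LNCaP, 22Rv1 had 1 member higher and 6 lower (74.8% of 14026 genes were called, 39.3% higher and 35.5% lower), led by ABCG1 at -3.09 ± 0.15 (8.51-fold lower, limma adjusted p = 5.03e-15) and ABCA1 at -2.76 ± 0.40 (6.79-fold lower, adjusted p = 9.80e-07), with SMPDL3A higher by 2.79 ± 0.21 (6.93-fold, adjusted p = 1.03e-11). NR1H2, NR1H3, MYLIP and LPCAT3 were lower there, with log2 fold changes of -0.80, -0.43, -0.80 and -0.91. Compared with LNCaP, LNCaP95 had 1 member higher and 4 lower (66.5% of genes were called, 34% higher and 32.5% lower): SMPDL3A at 0.80 ± 0.21, NR1H2 at -1.29 ± 0.12 (2.45-fold lower), ABCG1 at -1.09 ± 0.15, LPCAT3 at -0.60 ± 0.10 and MYLIP at -0.33 ± 0.14. Compared with 22Rv1, LNCaP95 had 4 higher and 2 lower (76.1% were called, 35.4% higher and 40.8% lower), with ABCA1 at 2.35 ± 0.40 and ABCG1 at 2.00 ± 0.15 higher and SMPDL3A at -1.996 ± 0.21 lower. Scaling to equal totals moved the median of all genes by 0.21 between LNCaP95 and LNCaP, and the share of called genes that were higher from 51.1% to 63.3%. MYLIP then lost its call there (-0.12, adjusted p = 0.480), and it also lost it without LNCaP DMSO replicate 1 or 3 or LNCaP95 DMSO replicate 2 or 3 (adjusted p = 0.0670, 0.0948, 0.116 and 0.124). NR1H3 lost its call between 22Rv1 and LNCaP without 22Rv1 DMSO replicate 2 (-0.26, adjusted p = 0.111), and LPCAT3 lost the one between LNCaP95 and 22Rv1 without LNCaP95 DMSO replicate 1 (0.25, adjusted p = 0.0559).

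Differences in the response between lines were tested as interactions in 1 fit of all 27 libraries. ABCG1 gained more in 22Rv1 than in LNCaP, by 1.41 ± 0.22 at 100 nM (limma adjusted p = 6.28e-05) and 0.82 ± 0.22 at 500 nM (adjusted p = 0.0111), and more in LNCaP95 than in LNCaP, by 1.64 ± 0.22 and 0.98 ± 0.22 (adjusted p = 1.59e-06 and 0.000868). LNCaP95 and 22Rv1 were not told apart for ABCG1, with differences of 0.23 (95% interval -0.22 to 0.68) and 0.16 (-0.29 to 0.61). ABCA1 changed the other way: its effect in LNCaP95 was below that in LNCaP with differences of -1.92 ± 0.55 at 100 nM (limma adjusted p = 0.00659) and -1.86 ± 0.55 at 500 nM (adjusted p = 0.00999), and below that in 22Rv1 with differences of -2.29 ± 0.55 and -2.47 ± 0.55 (adjusted p = 0.00410 and 0.00237). All 4 of these ABCA1 calls held in each of 12 fits without 1 library. With replicates 2 and 3 only, the 500 nM differences missed the threshold (-1.58 and -1.81, adjusted p = 0.0570 and 0.0503). So did the 100 nM difference from 22Rv1 (-1.72, adjusted p = 0.0586), while the 100 nM difference from LNCaP kept its call. The ABCA1 effects in 22Rv1 and LNCaP differed by 0.37 (95% interval -0.77 to 1.51) and 0.61 (-0.53 to 1.75), not called.

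NR1H2 gained more in LNCaP95 than in LNCaP, by 0.89 ± 0.17 at both doses (limma adjusted p = 0.000116 and 0.000174). The LPCAT3 effect was not called different between any 2 lines, the 6 differences running from -0.19 to 0.29. Of the 7 members, the interaction was called for 2 between 22Rv1 and LNCaP at 100 nM (19.1% of 11761 genes) and 1 at 500 nM (14.3%), for 4 between LNCaP95 and LNCaP (45.6%) and 3 at 500 nM (38.9%), and for 4 between LNCaP95 and 22Rv1 (24.6%) and 2 at 500 nM (25.4%). Under equal totals, the share of called interactions that were higher fell from 44.9% to 22.7% and from 47.4% to 21.4% between 22Rv1 and LNCaP, with the median of all genes moved by -0.13 and -0.16. At 500 nM it went from 50.9% to 39.5% between LNCaP95 and LNCaP and from 51.2% to 61.6% between LNCaP95 and 22Rv1.

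Genes around the members were read from 9 lists at 500 nM, by how many of the genes tested were called, with the list's median beside the median of all genes given above. Of all genes tested at that dose, 11% were called higher and 9.83% lower in LNCaP, 3.47% and 3.5% in 22Rv1 and 28.2% and 24.1% in LNCaP95. Differences between lines were not tested for the genes of these lists. RXRA, RXRB and RXRG are the DNA-binding partners of LXR. In LNCaP 0 rose and 1 of 2 fell (RXRB at -0.38 ± 0.10), in 22Rv1 0 of 2 were called, and in LNCaP95 2 of 3 rose, RXRB by 0.41 ± 0.09 and the scarce RXRG from a mean of 3.86 to 21.4 (2.27 ± 0.44, or 4.83-fold), while RXRA stood at 0.01 ± 0.10. Of 11 co-repressors and co-activators of nuclear receptors, 1 fell in LNCaP (TBL1XR1 at -0.31 ± 0.10), 0 were called in 22Rv1 and 1 rose in LNCaP95 (NCOA2 at 0.31 ± 0.11). The list's medians were -0.05, 0.09 and 0.04.

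Of the LXR targets of lipid synthesis, 5 of 7 rose and 0 fell in LNCaP (median 1.195), 5 of 7 rose in 22Rv1 (median 0.81) and 6 of 7 in LNCaP95 (median 0.77). MLXIPL, a glucose-responsive transcription factor, was at -0.46, -0.62 and -0.45, not called in any line, and neither ELOVL5 in LNCaP (0.14) nor FADS1 in 22Rv1 (0.34) was called. SREBF1, the master regulator of fatty acid synthesis genes, rose by 1.195 ± 0.21, 1.36 ± 0.11 and 1.27 ± 0.07 in LNCaP, 22Rv1 and LNCaP95, SCD, which makes monounsaturated fatty acids, by 2.85 ± 0.50, 2.33 ± 0.16 and 1.86 ± 0.17, and FASN, the target of the compound, by 2.14 ± 0.52, 1.68 ± 0.14 and 0.98 ± 0.14. These genes are also driven by SREBP proteins, so the list is not specific to LXR. Among 15 further genes listed as LXR targets, 4, 9 and 6 passed the filter on low values in the 3 lines. Called were 1 higher and 1 lower in LNCaP, 1 and 0 in 22Rv1 and 4 and 1 in LNCaP95 (medians 0.0037, 0.26 and 0.45). The lower gene was TTC39B in LNCaP. In LNCaP95 it was the scarce CYP7A1, from a mean of 14.6 to 6.44 normalised counts (-1.17 ± 0.46, limma adjusted p = 0.0486). EEPD1, which assists cholesterol efflux, rose by 1.17 ± 0.13 in LNCaP and 0.45 ± 0.11 in LNCaP95 and was at 0.26 ± 0.15 in 22Rv1. TTC39B is counted in this list but is known for promoting the breakdown of LXR protein, so its changes are not a readout of LXR targets. It fell in LNCaP (-0.997 ± 0.15), rose in LNCaP95 (0.51 ± 0.11) and was at 0.58 ± 0.22 in 22Rv1. ACSL3, an acyl-CoA synthetase, rose by 0.97 ± 0.11 in 22Rv1 and 0.45 ± 0.10 in LNCaP95 and was at 0.36 ± 0.15 in LNCaP.

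Among enzymes that make or clear oxysterols, CYP39A1, an oxysterol hydroxylase, rose by 1.54 ± 0.18 in LNCaP and 0.78 ± 0.28 in LNCaP95 and was at 0.07 ± 0.13 in 22Rv1. SULT2B1, which sulphates oxysterols, fell in LNCaP (-0.56 ± 0.16) and was at -0.53 ± 0.22 in LNCaP95 (limma adjusted p = 0.0554) and 0.08 ± 0.39 in 22Rv1. CYP11A1, which cleaves the side chain of cholesterol, was tested in LNCaP alone, where it rose from a mean of 6.46 to 28.3 normalised counts (2.01 ± 0.62). Of this list 2 rose and 1 fell of 5 tested in LNCaP (median 0.50), 0 of 5 were called in 22Rv1 (0.07) and 1 rose of 4 in LNCaP95 (-0.17). Other carriers of sterols and lipids included 5 higher and 1 lower of 13 in LNCaP (median 0.28), 2 and 1 of 14 in 22Rv1 (0.12) and 9 and 3 of 16 in LNCaP95 (0.30). NPC1, which lets cholesterol out of lysosomes, rose by 2.16 ± 0.18 in LNCaP and 1.18 ± 0.12 in LNCaP95 and was at 0.22 ± 0.10 in 22Rv1. ABCA5 rose in LNCaP95 (1.202 ± 0.13) and was at 0.10 ± 0.29 in LNCaP and -0.06 ± 0.14 in 22Rv1. SCARB1, the HDL receptor, fell in LNCaP95 (-0.69 ± 0.08) and was at 0.73 ± 0.27 in LNCaP and 0.19 ± 0.09 in 22Rv1.

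Of the lipoprotein receptors that MYLIP marks for degradation, 2 were read here. VLDLR rose in LNCaP95 (1.37 ± 0.10) and was at -0.35 ± 0.12 and 0.25 ± 0.18 in LNCaP and 22Rv1. LRP8 fell in LNCaP95 (-0.39 ± 0.10) and was at 0.64 ± 0.24 and 0.17 ± 0.17. Their medians were 0.15, 0.21 and 0.49 in LNCaP, 22Rv1 and LNCaP95. Of the acyltransferases related to LPCAT3, LPCAT1 rose in all 3 lines (1.05 ± 0.12, 0.77 ± 0.11 and 0.34 ± 0.07), MBOAT7 in LNCaP and LNCaP95 (0.53 ± 0.12 and 0.63 ± 0.09) and MBOAT2 in 22Rv1 and LNCaP95 (0.79 ± 0.13 and 0.28 ± 0.09). That list had 2 higher and 0 lower of 5 in LNCaP (median 0.38), 2 and 1 of 6 in 22Rv1 (0.00) and 3 and 2 of 5 in LNCaP95 (0.28). Of the relatives of SMPDL3A, SMPD1, the lysosomal sphingomyelinase, rose by 0.57 ± 0.11 in 22Rv1 and 0.67 ± 0.08 in LNCaP95. SMPD4 rose in LNCaP (0.77 ± 0.10) and fell in LNCaP95 (-0.59 ± 0.09), and SMPDL3B fell in LNCaP95 (-0.30 ± 0.07). Called were 1 higher and 0 lower of 5 in LNCaP (median 0.26), 1 and 0 of 5 in 22Rv1 (-0.01) and 2 and 2 of 4 in LNCaP95 (-0.01).

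**Figure D5:**
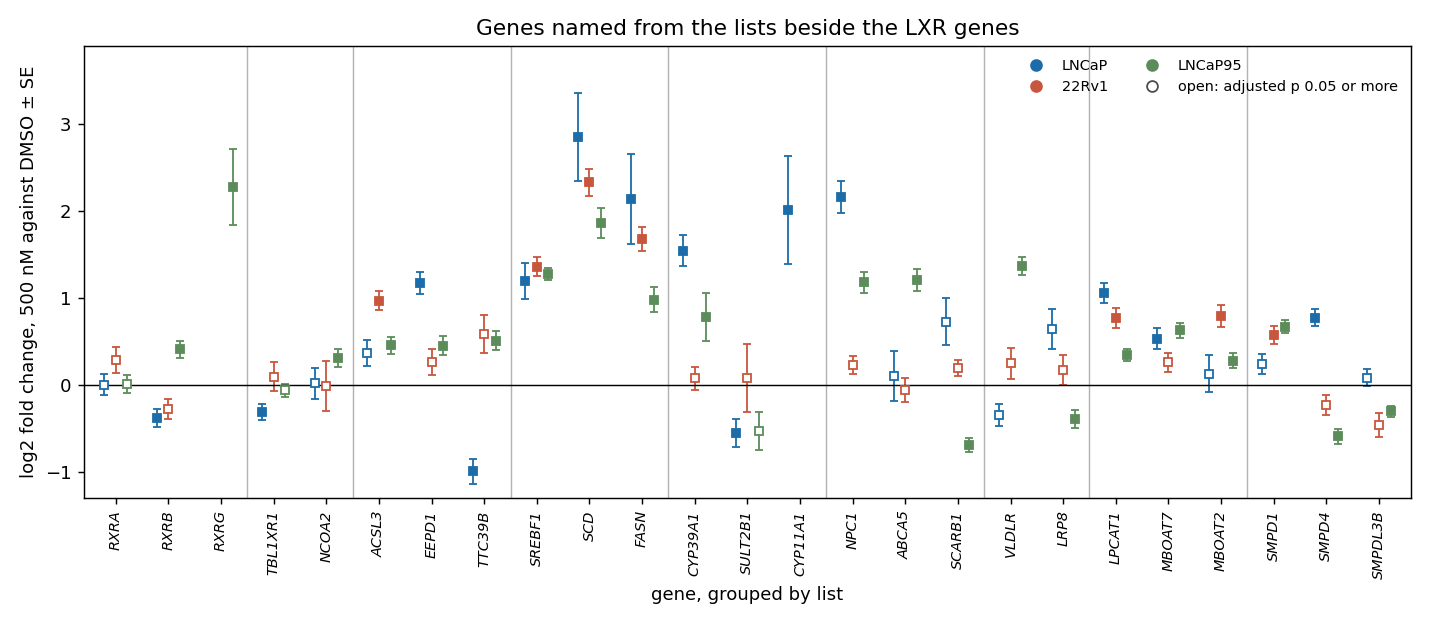
Log2 fold changes at 500 nM against DMSO ± standard error (limma) of the genes named from the 9 lists, by line (colours), filled where the adjusted p was under 0.05 and missing where the gene was below the filter. SREBF1, SCD, FASN and LPCAT1 are higher in each line, while SCARB1 goes to -0.69 in LNCaP95.

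By pattern over the 9 group means, among 7699 genes that reached 50 normalised counts and spanned at least 1 on the log2 scale, the genes most like ABCG1 were FAM177A1 (Pearson's r = 0.955), NUDT18 (0.950), SQSTM1 (0.948), PPM1L (0.944) and TMEM50B (0.942). SQSTM1, the autophagy receptor p62, ran from 3599.75 in untreated 22Rv1 to 31087 in LNCaP at 500 nM, with 11484 in untreated LNCaP95 and 30240 and 30099 in the treated groups of that line. Most like ABCA1 were PLA2G4F (0.964), RFK (0.946), MPV17 (0.945), NOL6 (0.941) and MRPS12 (0.940). PLA2G4F, a cytosolic phospholipase A2, was at 708 in untreated LNCaP and 1121 and 966 with the compound, and in LNCaP95 at 268 untreated and 202 and 205 treated. The groups share lines, so these values are descriptions over 9 points and carry no test.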

How the data were processed

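RNA of 27 libraries was measured by paired-end sequencing. Per the submitters' processing notes, reads were aligned with STAR 2.3.1z4 to hg19, counted with featureCounts and normalised with DESeq. The authors deposited 1 signal value per gene and library, gene counts divided by size factors. All values (100%) came out as whole multiples of 1 read, to a tolerance of 1e-06, with 0.757 to 1.39 units per read, and the size factors equalled median-of-ratios factors to a relative gap of 3.3e-09. The file held 0 columns of no sample.

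Genes were tested with limma 3.58.1 (R 4.3.3) on log2(value + 1), with p-values adjusted over all genes tested by Benjamini-Hochberg. Within a line, a gene had to reach 10 or more in at least 3 libraries of that line. For interactions it had to do so in each line, and for untreated lines in at least 3 DMSO libraries of any line. Each line was fitted alone, untreated lines and interactions in fits across lines. The log scale was kept as the main analysis, and edgeR 4.0.16 and DESeq2 1.42.0 were run on recovered reads as alternatives. The ratio was tested by exact permutation over all arrangements of the libraries of a line, and scipy 1.17.1 adjusted these p-values over the 3 lines. Scripts were tested on simulated data. Intervals are at 95%. Exon lengths came from GENCODE basic annotation on GRCh38, not the authors' build. Named were all members, up to 3 called genes per list by smallest p (lists of 4 or fewer whole), and the 5 genes most like each exporter. Some genes of the lists and markers are not reported here, and counts leave them out. Members and lists were chosen with earlier results of these data known.

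Same-numbered libraries deviated together in 9 of 9 pairs in LNCaP95 (correlations 0.13 to 0.47), so numbers appeared to pair libraries there, from the data and not the labels. This held in 6 of 9 pairs in LNCaP, among them all 3 pairs of DMSO with 500 nM (0.13 to 0.32) but not those of DMSO with 100 nM, and in 4 of 9 in 22Rv1. The main fits and the main ratio test did not use this pairing, and a replicate block was run only as an alternative. In LNCaP95 the block called 7 members at each dose, against 6 in the main fits. Over all genes it called 7840 and 7789 of 12844 at 100 and 500 nM, against 6713 and 6715. Alternatives were other pseudocounts, filters, scalings, array weights, a replicate block, fits of fewer or more libraries, and leaving out each library. Array weights gave convergence warnings in some fits, so results with them are less certain.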

Additional observations from a re-analysis of the deposited data

Results flagged for a closer look

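The response of 5 members differed between lines by a test of the difference itself (limma interaction, adjusted over all genes), in 16 of the 42 differences tested over 7 members. Of all genes tested, 14.3% to 45.6% were called in the same comparisons. Values are differences of log2 fold changes, line named first minus line named second.

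ABCG1 was flagged for 22Rv1 against LNCaP (1.41 at 100 nM and 0.82 at 500 nM) and for LNCaP95 against LNCaP (1.64 and 0.98). ABCA1 was flagged for LNCaP95 against LNCaP (-1.92 and -1.86) and against 22Rv1 (-2.29 and -2.47). NR1H2 was flagged for LNCaP95 against LNCaP (0.89 at 100 nM and 0.89 at 500 nM) and, at 100 nM, against 22Rv1 (0.47, adjusted p = 0.0418). These ABCG1 and ABCA1 differences, and those of NR1H2 against LNCaP, kept their calls in 12 of 12 fits without 1 library. The NR1H2 difference against 22Rv1 lost its call in 6 of 12 (adjusted p up to 0.125), with values of 0.33 to 0.57.

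MYLIP was flagged at 100 nM for 22Rv1 against LNCaP (1.07), for LNCaP95 against LNCaP (0.51) and for LNCaP95 against 22Rv1 (-0.56). The first kept its call in 12 of 12 fits without 1 library, and the others lost it in 6 and 7 of 12 (0.43 to 0.64 and -0.67 to -0.46). SMPDL3A was flagged for LNCaP95 against 22Rv1 (0.91 at 100 nM and 1.04 at 500 nM). The 100 nM difference of SMPDL3A lost its call in 4 of 12 fits (0.75 to 1.16), namely without 22Rv1 100 nM replicate 1 or LNCaP95 DMSO replicate 1, 100 nM replicate 2 or 100 nM replicate 3.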

How the results depend on the processing

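ABCG1 kept direction and call against DMSO in all 3 lines under every alternative run. ABCA1 kept its direction against DMSO in each line but not all of its calls. In LNCaP at 500 nM ABCA1 missed the threshold with no filter (1.02), equal totals (1.09), all 27 libraries in 1 fit (1.02) and edgeR (1.02), with adjusted p = 0.0529 to 0.0605. At 100 nM there ABCA1 passed it with quantile normalisation (0.95), the replicate block (0.94), array weights (0.73), replicates 2 and 3 only (1.23), edgeR (1.06) and DESeq2 (1.06). ABCA1 in 22Rv1 at 100 nM passed with quantile normalisation (1.43), the fit of 27 libraries (1.31) and DESeq2 (1.21), and at 500 nM missed it with replicates 2 and 3 only (1.32). ABCA1 in LNCaP95 missed it at 500 nM with no filter (-0.84), array weights (-0.66), the fit of 27 libraries (-0.84) and replicates 2 and 3 only (-0.49), and at 100 nM with the last (-0.95). With replicates 2 and 3 only, the 500 nM ABCA1 interactions also missed it (-1.58 and -1.81), as did the 100 nM one of LNCaP95 against 22Rv1 (-1.72). In those libraries the difference of the ABCG1 to ABCA1 ratio was 1.503 in 22Rv1 and 3.47 in LNCaP95 (exact permutation p = 0.0667, the smallest that 4 against 2 libraries allow). There 4 members were called in LNCaP at 100 nM, beside 4545 of 12677 genes. In 22Rv1 at 100 and 500 nM it was 1 and 2 members, beside 124 and 105 of 13374 genes. Doses apart, the ratio differed by 1.19 and 0.97 in 22Rv1 (exact permutation p = 0.1 and 0.2) and 3.71 and 3.59 in LNCaP95 (p = 0.1, the smallest 3 against 3 allows). The cause was not tested.

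Signs turned, none called, for MYLIP in LNCaP at 100 nM (0.038, 0.00999 and 0.00968 with equal totals, quantile normalisation and DESeq2), NR1H3 in 22Rv1 at 500 nM (-0.076, -0.0018 and -0.0062 with equal totals, edgeR and DESeq2), SMPDL3A in LNCaP at 100 nM (-0.064 with array weights, -0.14 with replicates 2 and 3 only) and the 100 nM ABCA1 difference of 22Rv1 from LNCaP (-0.47, the latter).

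Leaving out 1 library gave ABCA1 0.57 to 1.33 and 0.86 to 1.198 in LNCaP, 0.93 to 1.78 and 1.24 to 2.09 in 22Rv1 and -1.27 to -0.64 and -1.14 to -0.64 in LNCaP95 at 100 and 500 nM, an ABCA1 difference of 22Rv1 from LNCaP of -0.017 to 0.84, a 22Rv1 ratio of 0.50 to 1.46 and 2 to 4 members called in LNCaP at 500 nM (2 without DMSO replicate 2 or 500 nM replicate 1). MYLIP (-0.13 to 0.082), NR1H3 (-0.20 to 0.0019) and SMPDL3A (-0.053 to 0.16) in LNCaP at 100 nM, and NR1H3 in 22Rv1 (-0.061 to 0.30 and -0.16 to 0.20), turned sign.

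The replicate block called SMPDL3A in LNCaP95 (0.55 and 0.56) and ended the 100 nM call of SMPDL3A in 22Rv1 (-0.35, adjusted p = 0.0599). It called NR1H3 in LNCaP at 500 nM (-0.36). It changed no other call of a member against DMSO but that of ABCA1 given above, and none between untreated lines. For differences between lines at 500 nM it called 4 members for 22Rv1 against LNCaP and 4 for LNCaP95 against 22Rv1, against 1 and 2. Over all genes it called 2191 and 3574 of 11761 in these comparisons, against 1683 and 2983. Genes called changed by over 1.5 times with array weights (5781 and 6030 against 3250 and 2671 in LNCaP, 307 and 3729 against 889 and 946 in 22Rv1), with only the 6 libraries compared (356 and 1428 in 22Rv1) and with replicates 2 and 3 only (124 and 105 in 22Rv1). With array weights 5199 and 3900 differences between 22Rv1 and LNCaP were called, against 2249 and 1683, and 5845 and 4792 between LNCaP95 and 22Rv1, against 2899 and 2983. Over 1.5 times fewer genes were called in LNCaP at 100 nM without DMSO replicate 2 or 3 or 100 nM replicate 2 (1753, 1736 and 1894), and at 500 nM without DMSO replicate 2 or 3 or 500 nM replicate 1, 2 or 3 (1475 to 1603). The same held in 22Rv1 at 100 nM without 100 nM replicate 1, DMSO replicate 2 or 3 or 500 nM replicate 2 (261, 363, 402 and 550), and at 500 nM without DMSO replicate 2 or 3 or 500 nM replicate 1, 2 or 3 (384 to 494), while without 100 nM replicate 2 there were 1461. Depth limits ABCA1 in untreated 22Rv1, with 7 to 31 reads.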
